A study of Mus musculus with 15 samples.

Results

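The cytosolic ribosomal proteins are the protein components of the ribosome that translates nuclear-encoded mRNA in the cytoplasm. They were taken here as every gene whose symbol begins with Rpl or Rps and a digit, together with Rplp0, Rplp1, Rplp2 and Rpsa, without pseudogenes named as such and without the S6 kinases and the Rps19 binding protein. This gave 89 of the 33058 named genes of the kidney RNA sequencing table. The level of a gene was the sum of the FPKM (fragments counted per kilobase and scaled to the size of the library) of its annotated and assembled transcripts, 518 in all. The study sequenced the kidneys of 15 untreated male mice of the strain C57BL/6 (C57BL/6J in its methods), 5 at 3 months, 5 at 12 months and 5 at 24 months of age, with 1 library per mouse. The ages stand for young, middle-aged and old animals, and the comparisons between them ask what changes in the kidney with age. Sample titles begin with 3M at every age, so mice were grouped by the age label, and replicate numbers are those of the titles (5 to 9, 17 to 21 and 31 to 35). The labels describe rRNA-depleted total RNA and a stranded kit, whereas the methods of the study name oligo(dT) selection, which matters here because introns of ribosomal protein genes carry other RNAs.

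A ribosome has a small 40S and a large 60S subunit, and most ribosomal proteins are present once in each ribosome, so cells need them in equal molar amounts. Rplp0, Rplp1 and Rplp2 form the stalk of the large subunit, which recruits elongation factors. The mRNAs of these proteins begin with a run of pyrimidines, the 5' TOP motif, through which mTOR signalling and Larp1 control their translation, and Rpl5 and Rpl11 bind the p53 regulator Mdm2 when ribosome assembly is disturbed. In the kidney, tubule cells make large amounts of transport proteins and depend on this machinery.

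Of the 89 genes, 77 encode core proteins, 43 of the large subunit, 3 of the stalk and 31 of the small subunit. The remaining 12 are paralogs and retrogenes, copies of a core gene elsewhere in the genome. In the GENCODE M21 annotation 84 genes are protein coding and lie on 19 chromosomes, while Rpl37rt, Rpl6l, Rps12l1, Rps3a2 and Rps4l are annotated there as processed pseudogenes, transcribed ones in the case of Rpl37rt and Rps4l. Of the 89, 84 were above 0 FPKM in all 15 mice, and all 77 core genes were at 1 FPKM or more in every mouse. Reads of ribosomal protein genes can align equally well to paralogs and to pseudogenes, and how the authors divided such reads is not given in the sources used here, so the levels of closely related copies are uncertain.

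The start sites are shown first because the TOP motif is the feature through which these mRNAs are controlled together. RefSeq promoter sequences (GRCm38.p6) were matched by symbol for 65 of the 89 genes. A run was counted where a C began within 5 bases of the annotated start and at least 4 further bases of the RNA-like strand were C or T. Only that strand was searched, since the motif is one of the RNA. The windows below hold 15 bases before the start and 15 bases from it on, with the run in capitals, and show genes that led a comparison or stand for a role.
Rps6, small subunit, chr4:86857353-86857382, minus strand: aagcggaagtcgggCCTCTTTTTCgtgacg
Rpl35, large subunit, chr2:39005117-39005146, minus strand: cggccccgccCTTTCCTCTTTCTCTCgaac
Rpl15, large subunit, chr14:18270972-18271001, minus strand: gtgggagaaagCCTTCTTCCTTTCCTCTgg
Rpl18, large subunit, chr7:45718056-45718085, plus strand: tgcgtctcgcaggccgCTCTTTCCCCgccc
Rplp2, stalk, chr7:141447636-141447665, plus strand: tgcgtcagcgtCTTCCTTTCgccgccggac
Rps2, small subunit, chr17:24720048-24720077, plus strand: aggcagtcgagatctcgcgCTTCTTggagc
Rpl10, large subunit, chrX:74270801-74270830, plus strand: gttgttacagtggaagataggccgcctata
Rpl37a, large subunit, chr1:72711245-72711274, plus strand: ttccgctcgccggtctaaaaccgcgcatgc
As counted by this rule, Rpl15 and Rpl35 hold the longest runs shown, 17 and 16 bases. In Rpl35 the bases directly before the counted run are also C, but lie outside the 5 bases in which a run could begin. Rpl10 and Rpl37a hold none at the annotated start, which says only that these letters are not in this window. Of the 65 genes 30 (46.2%) held a run, against 21.2% of the 27025 genes with a promoter sequence. At the start base itself a run began in 14 (21.5%) of the ribosomal protein genes and in 3.01% of all genes.

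The levels of the core genes covered a wide range in FPKM, although the proteins are needed in equal amounts. Their mean over the 15 mice ran from 7.98 FPKM for Rps20 to 259 FPKM for Rps2, a ratio of 32.5, with a median of 52.7 FPKM and quartiles of 31.03 and 95.3 FPKM. Rps2, an entry channel protein of the small subunit, was followed by Rpl10 at 222 FPKM, which joins the large subunit in the last steps of its maturation. Next came Rplp0 at 212 FPKM, the base of the stalk, and Rpsa at 201 FPKM, which is also known as the laminin receptor. The 4 lowest core genes were Rps20 (7.98 FPKM), Rpl36a (11.4 FPKM), Rpl22 (11.7 FPKM) and Rpl39 (14.5 FPKM). Neighbours in this order mostly lay within each other's spread: Rpl36a ranged from 7.43 to 15.3 FPKM over the mice and Rpl22 from 8.96 to 16.0 FPKM. The median was 46.1 FPKM over the large subunit without the stalk and 52.7 FPKM over the small subunit. It was 67.9 FPKM over the 33 core proteins with a bacterial counterpart and 47.2 FPKM over the 44 without. Across the 77 core genes the mean FPKM and the mean transcript length had a Spearman rho of 0.094, a description over genes that share libraries. The 82 mitochondrial ribosomal protein genes, which serve the separate ribosome of the mitochondrion, had a median of 7.11 FPKM and a highest mean of 27.7 FPKM.

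**Figure D1:**
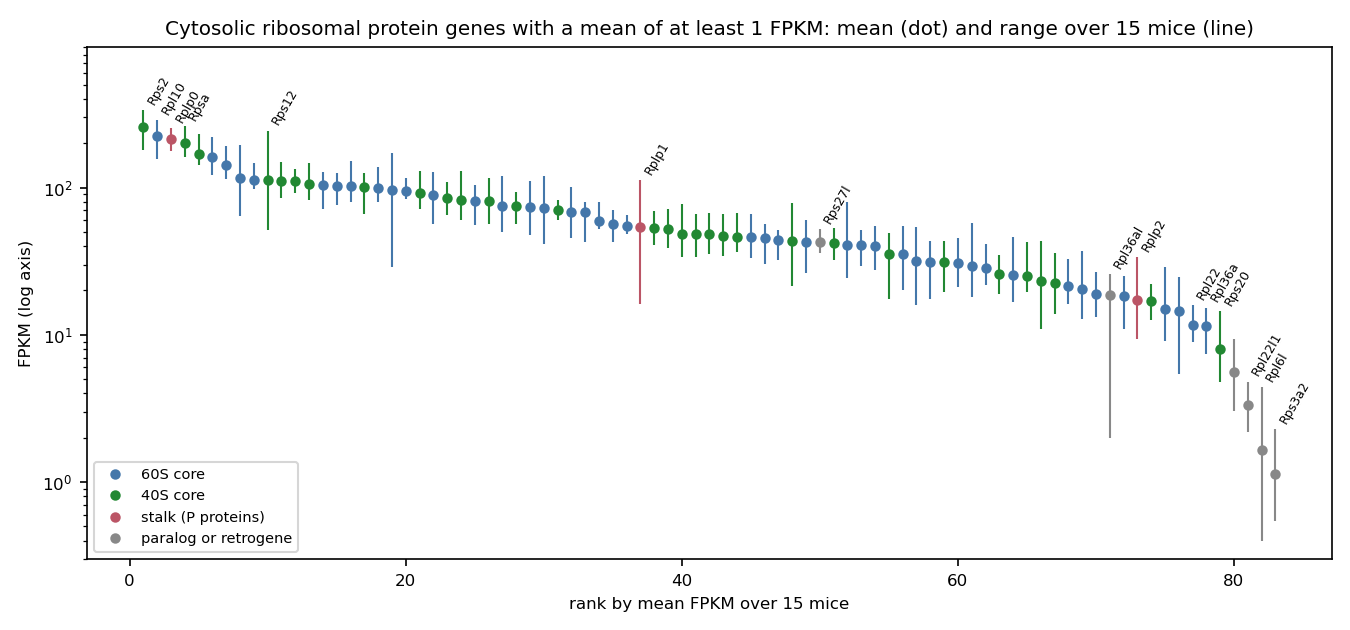
FPKM on a log axis for the 83 ribosomal protein genes with a mean of at least 1 FPKM, ordered by that mean, with dots for the mean and lines for the lowest and highest of 15 mice. Rps2 stands highest at 259 FPKM and Rps20 lowest of the core genes at 7.98 FPKM, and Rps12 and Rplp1 show wide ranges among core genes.

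The 3 stalk genes were listed at very different levels although 1 Rplp0 binds a pair of Rplp1 and Rplp2 dimers. Rplp0 averaged 222 ± 24.1, 218 ± 22.6 and 196 ± 23.4 FPKM (SD, n = 5) at 3, 12 and 24 months. Rplp1 was 48.6, 17.4, 39.7, 49.6 and 81.4 FPKM at 3 months, 16.2, 64.0, 113, 98.7 and 21.8 FPKM at 12 months and 16.97, 86.9, 65.4, 67.8 and 21.3 FPKM at 24 months. At each age 1 or 2 mice lay under 22 FPKM and the others at 39.7 FPKM or more, and the ages overlapped throughout. Rplp1 had the largest coefficient of variation of the core genes over the 15 mice, 59.1%, against a median of 18.9%. It was followed by Rps12, a small-subunit protein, at 53.7%. The least variable were Rps3a1 at 9.34% and Rpl5 at 9.51%.

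The paralogs showed 2 pairs in which the copy was not below its core partner. Rps27l, a p53-induced relative of Rps27, averaged 42.8 FPKM against 35.3 FPKM for Rps27. Rpl36al averaged 18.7 FPKM against 11.4 FPKM for Rpl36a, with 24-month replicate 34 at 2.01 FPKM and the other 14 mice at 14.5 FPKM or more. Both copies are annotated as protein coding. Rpl22l1, which can replace Rpl22, averaged 3.36 FPKM against 11.7 FPKM. Rpl7l1 averaged 5.56 FPKM against 102 FPKM for Rpl7, and the muscle paralog Rpl3l averaged 0.749 FPKM against 113 FPKM for Rpl3. Rps3a2 averaged 1.13 FPKM against 110 FPKM for Rps3a1. The testis-expressed Rpl39l averaged 0.0075 FPKM against 14.5 FPKM for Rpl39, and Rps27rt averaged 0.070 FPKM. Rps4l, a retrogene related to Rps4x (91.1 FPKM), was listed at 0 in all mice except 12-month replicates 17 and 21, at 1.81 and 2.24 FPKM. Rpl6l averaged 1.66 FPKM, Rps12l1 0.169 FPKM and Rpl37rt 0.024 FPKM.

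Summed over all 89 genes, the level was highest at 12 months, with overlap between all ages. The sum was 4640, 5365, 4832, 5016 and 5803 FPKM in the mice at 3 months, 6644, 5112, 5418, 5458 and 6076 FPKM at 12 months and 5534, 5621, 4664, 4739 and 4940 FPKM at 24 months. The means were 5131 ± 461, 5741 ± 614 and 5100 ± 449 FPKM (SD, n = 5). The genes took between 2.01% and 2.80% of the FPKM listed for a mouse. The highest sum was that of 12-month replicate 17 and the lowest that of 3-month replicate 5. The large subunit without the stalk summed to 2571 ± 263, 2923 ± 342 and 2587 ± 224 FPKM and the small subunit to 2206 ± 191, 2438 ± 288 and 2174 ± 232 FPKM, so both subunits had their highest mean at 12 months. In these bulk samples fewer cells of a type and less RNA per cell cannot be told apart.

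**Figure D2:**
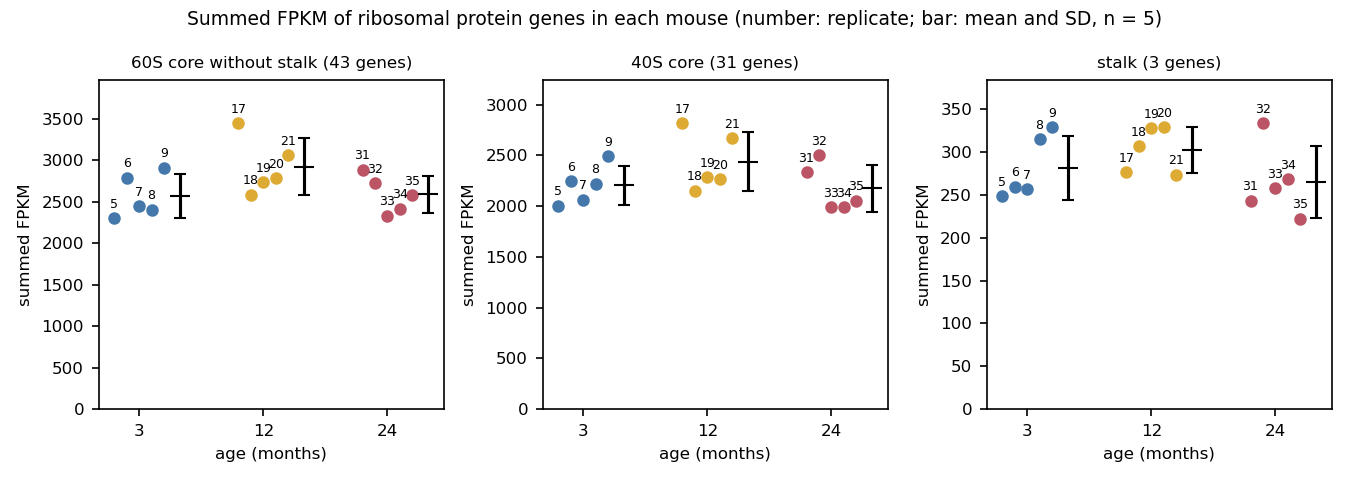
Summed FPKM of the large subunit without the stalk, of the small subunit and of the stalk in each mouse, by age, with replicate numbers, the mean and the SD. Both subunits have their highest mean at 12 months (2923 and 2438 FPKM), where replicates 17 and 21 lie above the other 3 mice.

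Between 24 and 3 months, the main comparison of the study, no ribosomal protein gene passed. With limma on log2(FPKM + 1), fitted over all genes above 0 in at least 1 of the 10 mice and adjusted by Benjamini and Hochberg, 0 of 88 tested members were below an adjusted p of 0.05, against 1.22% of the 31755 genes tested. Rps4l was not tested because it was listed at 0 in these 10 mice. At an unadjusted p under 0.05, 2 members were higher and 4 lower at 24 months, where the shares over all genes were 11.4% higher and 3.47% lower. No member reached a fold limit set here (unadjusted p under 0.05 and a log2 change above 1 in size), which 0.523% of all genes did, and for 0 members did the 2 ages not overlap, against 4.73% of all genes. The median log2 difference over the members was 0.03, that over all genes tested 0.02 and that over the 18384 genes above 0 in all 15 mice 0.06. After median-of-ratios scaling the median of the members was -0.07, and 1 member was higher and 10 were lower, beside 8.12% of all genes higher and 6.47% lower. Of the higher members 1 was left without 3-month replicate 5 or 24-month replicate 31, and the count was 4 without 3-month replicate 9 and 6 without 24-month replicate 35. Of the lower members 1 was left without 3-month replicate 9 or 24-month replicate 31 and 2 without 24-month replicate 33, and the count was 7 without 24-month replicate 32. Over all genes the share higher ran from 9.90% to 10.97% in the 4 fits named for the higher members, and the share lower from 2.91% to 3.84% in those named for the lower. The p-values weigh each difference against the spread between these mice, which limma moderates with that of all genes.

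The 2 members higher at 24 months at the unadjusted limit both belong to the large subunit. Rpl36a, at the tRNA exit site, was 7.43, 7.96, 10.0, 9.70 and 12.5 FPKM at 3 months, 12.0, 11.6, 10.5, 14.3 and 11.0 FPKM at 12 months and 11.6, 12.1, 12.6, 15.3 and 12.9 FPKM at 24 months. All but 1 of the young mice lay below every old mouse. Its log2 difference was 0.42 (SE 0.13, limma adjusted p = 0.168). Rpl22, a peripheral protein that binds double-stranded RNA, was 8.96, 10.1, 10.5, 10.2 and 10.2 FPKM at 3 months, 16.0, 10.6, 14.1, 12.5 and 11.6 FPKM at 12 months and 14.8, 10.4, 12.2, 12.7 and 10.5 FPKM at 24 months. The young mice were close together and the older ages spread upwards from them. Its log2 difference between 24 and 3 months was 0.25 (SE 0.10, limma adjusted p = 0.261).

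The 4 members lower at 24 months were Rpl18, Rpl15, Rps2 and Rpl10. Rpl18, a large-subunit protein, was 40.5, 66.5, 46.1, 50.2 and 48.7 FPKM at 3 months, 54.2, 43.5, 42.3, 50.7 and 56.1 FPKM at 12 months and 40.5, 46.1, 33.4, 35.3 and 37.4 FPKM at 24 months. The old mice were lowest, with some overlap, and the log2 difference from the young was -0.37 (SE 0.13, limma adjusted p = 0.235). Rpl15, which lies deep in the large subunit, was 20.3, 21.03, 20.96, 16.5 and 26.7 FPKM at 3 months, 20.5, 19.5, 13.2, 20.02 and 25.3 FPKM at 12 months and 14.3, 20.4, 15.2, 16.1 and 15.9 FPKM at 24 months. Of the old mice only replicate 32 exceeded the lowest young mouse, and the log2 difference was -0.34 (SE 0.13, limma adjusted p = 0.251). Rps2 was 287, 279, 313, 300 and 336 FPKM at 3 months, 200, 230, 185, 279 and 309 FPKM at 12 months and 195, 302, 236, 180 and 250 FPKM at 24 months. All 5 young mice were high and the older ages ran from their level to well below it, with a log2 difference between 24 and 3 months of -0.40 (SE 0.15, limma adjusted p = 0.256). Rpl10 was 266, 264.96, 241, 259 and 288 FPKM at 3 months, 172, 198, 156, 226 and 222 FPKM at 12 months and 196, 261, 155, 214 and 216 FPKM at 24 months. Its log2 difference was -0.36 (SE 0.14, limma adjusted p = 0.272). Only old replicate 32 lay within the range of the young mice.

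The next members in order of p had larger p-values. Rpl30, a large-subunit protein, had a log2 difference of 0.30 between 24 and 3 months (limma adjusted p = 0.347), and Rpl13a, which is also part of an interferon-induced translational repressor, had 0.27 (limma adjusted p = 0.378). Rpl6 had -0.13 (limma adjusted p = 0.403). Of the genes with known roles outside the ribosome, those described next had no unadjusted p under 0.05 between 24 and 3 months. Rpl5 averaged 94.5 ± 12.8 FPKM at 3 months, 92.6 ± 4.99 FPKM at 12 months and 98.9 ± 8.50 FPKM at 24 months (SD, n = 5). Rpl11 averaged 61.3 ± 11.6, 74.8 ± 2.11 and 67.7 ± 9.58 FPKM. Both bind Mdm2 together with the 5S rRNA, and their log2 differences between 24 and 3 months were 0.07 and 0.15 (limma adjusted p = 0.766 and 0.671). Between 12 and 3 months Rpl11 had 0.30 (limma adjusted p = 0.329) and is among the members counted as higher there. Rps6, the S6 kinase substrate, averaged 167 ± 15.9, 185 ± 29.8 and 157 ± 20.8 FPKM. Rpsa averaged 195 ± 21.8, 211 ± 46.6 and 198 ± 32.1 FPKM. Rps3, which also has DNA repair activity, averaged 40.5 ± 7.19, 42.5 ± 6.84 and 43.8 ± 7.72 FPKM, and Rps14 averaged 80.3 ± 18.4, 89.4 ± 22.8 and 73.7 ± 23.8 FPKM. For Rps27a, made as a fusion with ubiquitin, the means were 23.1 ± 4.22, 26.8 ± 8.85 and 25.1 ± 3.55 FPKM. In each of these genes the ages overlapped.

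Between 12 and 3 months more members were higher, again without passing the adjusted test. limma put 0 of 89 members below an adjusted p of 0.05 (0.25% of 31637 genes tested), 24 higher and 3 lower at an unadjusted p under 0.05, against 11.4% higher and 2.9% lower over all genes. The 24 are 27.0% of the members, and all are core genes, 14 of the large subunit, 9 of the small subunit and Rplp2. No member reached the fold limit (0.499% of all genes). The ages did not overlap in 5 members, Rpl10, Rpl13a, Rpl22, Rpl35 and Rpl37a, a share of 5.62%, where 4.11% of all genes did not. The median log2 difference was 0.19 over the members, 0.02 over all genes and 0.07 over genes above 0 in all 15 mice. Over the 43 large-subunit genes it was 0.24, over the 31 small-subunit genes 0.19, over the 12 paralogs -0.01 and over the 82 mitochondrial ribosomal protein genes 0.11.

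The higher count depended on the scaling and on single mice. FPKM divides by the library total, and the median-of-ratios factors, which centre the typical gene, were 0.961 ± 0.0298 at 3 months, 1.06 ± 0.0324 at 12 months and 1.04 ± 0.0222 at 24 months (SD, n = 5). Divided by them, the median log2 difference of the members between 12 and 3 months was 0.06, and 8 members (8.99%) were higher at an unadjusted p under 0.05, beside 7.22% of all genes. Among genes with a mean of at least 1 FPKM, 23 of 83 members (27.7%) were higher, beside 13.4% of all genes. In a linear model with the summed log2 values of each library up to their upper quartile as a covariate, which also uses each gene's own variance in place of limma's moderated one, the count was 4, beside 7.57% of all genes. Without 12-month replicate 17 it was 13 (10.4% of all genes), and without 3-month replicate 5 it was 14 (9.55% of all genes). Without 12-month replicates 17 and 21, left out after their sums were seen, it was 7 (8.84% of all genes).

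Rpl35, at the peptide exit, had the smallest p in this comparison. It was 47.8, 62.7, 58.9, 50.7 and 64.9 FPKM at 3 months, 111, 67.4, 101, 70.6 and 105 FPKM at 12 months and 107, 65.4, 68.0, 57.1 and 62.8 FPKM at 24 months. Replicates 17, 19, 21 and 31 were above 100 FPKM and the other 11 mice below 71 FPKM. The log2 difference between 12 and 3 months was 0.65 (SE 0.16, limma adjusted p = 0.124). Rpl37a, a small zinc-finger protein, was 20.2, 26.0, 22.8, 22.4 and 22.7 FPKM at 3 months, 57.4, 28.6, 37.7, 28.6 and 36.6 FPKM at 12 months and 41.0, 30.6, 18.1, 27.6 and 18.9 FPKM at 24 months. All mice at 12 months exceeded all mice at 3 months, and the log2 difference was 0.66 (SE 0.18, limma adjusted p = 0.139). Rpl19 was 41.4, 47.7, 50.6, 59.2 and 62.5 FPKM at 3 months, 109, 59.9, 119, 68.7 and 108 FPKM at 12 months and 116, 59.2, 62.9, 65.4 and 53.1 FPKM at 24 months. The same 4 mice as for Rpl35 were high, and the log2 difference was 0.78 (SE 0.21, limma adjusted p = 0.140).

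Rpl13a and the stalk gene Rplp2 completed the 5 leading members. Rpl13a was 57.8, 63.2, 68.1, 65.4 and 49.9 FPKM at 3 months, 94.9, 69.7, 75.5, 99.0 and 120 FPKM at 12 months and 93.3, 76.6, 59.3, 69.5 and 70.2 FPKM at 24 months. The log2 difference between 12 and 3 months was 0.57 (SE 0.15, limma adjusted p = 0.142), with no overlap between these ages. Rplp2 was 10.6, 12.2, 9.39, 13.6 and 15.5 FPKM at 3 months, 21.3, 20.9, 33.8, 13.9 and 19.3 FPKM at 12 months and 27.4, 12.2, 14.8, 22.1 and 10.1 FPKM at 24 months. Only 12-month replicate 20 lay within the range of the young mice, and the log2 difference was 0.75 (SE 0.21, limma adjusted p = 0.161). Rpl10 was lower at 12 months by the values given above, with a log2 difference of -0.45 (SE 0.13, limma adjusted p = 0.162) and no overlap. Rps2 had -0.35 (limma adjusted p = 0.348), and Rps27rt -0.18 at levels near 0 (limma adjusted p = 0.263). Rpl39 had -0.48 (limma adjusted p = 0.602) and Rps16 -0.32 (limma adjusted p = 0.526). Rps19, which is mutated in Diamond-Blackfan anaemia, averaged 40.7 ± 5.92 FPKM at 3 months and 55.3 ± 10.4 FPKM at 12 months, a log2 difference of 0.42 (limma adjusted p = 0.240).

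**Figure D3:**
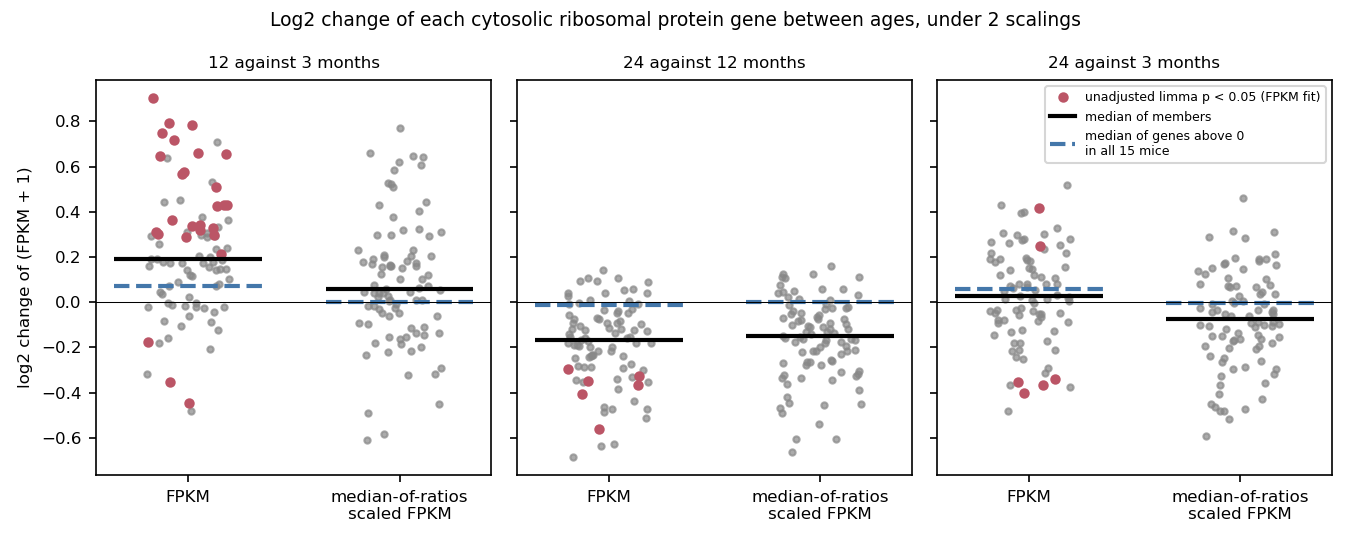
Log2 difference of (FPKM + 1) between ages for each ribosomal protein gene, from FPKM as deposited and after median-of-ratios scaling, with red points for an unadjusted limma p under 0.05 in the FPKM fit, a solid line for the median of the members and a dashed line for the median of genes above 0 in all 15 mice. Between 12 and 3 months the median of the members is 0.19 from FPKM and 0.06 after scaling, and 24 red points lie above 0.

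Between 24 and 12 months the members leaned the other way. limma put 0 of 89 below an adjusted p of 0.05 (0.0031% of 32282 genes), 0 higher and 6 lower at an unadjusted p under 0.05, against 3.07% higher and 3.36% lower over all genes. No member reached the fold limit (0.17% of all genes), and the ages did not overlap in 1 member, Rps15 (1.12% of members and 1.07% of all genes). The median log2 difference was -0.17 over the members and -0.00 over all genes, and 75 of 89 members were below 0. So were 16582 of 32282 genes tested and 9852 of the 18384 genes above 0 in all 15 mice. Of the 82 mitochondrial ribosomal protein genes 59 were below 0. After median-of-ratios scaling the median was -0.15 and 7 members were lower, beside 3.10% of all genes. This comparison shares its mice with the other 2, so its direction is not separate information. Without 24-month replicate 31 the count of lower members was 20, without 12-month replicate 18 it was 14, and without 12-month replicate 20 or 24-month replicate 32 it was 10. Over all genes the share that was lower in these 4 fits ran from 3.41% to 3.97%.

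Rps29, a zinc-binding small-subunit protein, led this comparison. It was 18.5, 22.2, 21.4, 13.9 and 28.3 FPKM at 3 months, 35.8, 22.8, 28.2, 24.2 and 29.3 FPKM at 12 months and 19.05, 24.4, 14.99, 19.3 and 16.1 FPKM at 24 months. The mice at 12 months were high, and the log2 difference between 24 and 12 months was -0.56 (SE 0.15, limma adjusted p = 0.666). Rps15, near the decoding site, was 70.7, 93.6, 70.4, 84.0 and 85.0 FPKM at 3 months, 109, 91.3, 91.6, 97.1 and 103 FPKM at 12 months and 87.4, 90.0, 76.9, 64.6 and 64.8 FPKM at 24 months. Every mouse at 12 months exceeded every mouse at 24 months, with a log2 difference of -0.36 (SE 0.11, limma adjusted p = 0.689). Rpl18 had -0.35 (limma adjusted p = 0.712), Rpl32 -0.33 (limma adjusted p = 0.714) and Rps7 -0.30 (limma adjusted p = 0.762). Rpl3l had -0.41 at means of 0.990 FPKM at 12 months and 0.496 FPKM at 24 months (limma adjusted p = 0.714). The 5 members with the smallest p among those above 0 were Rps27l at 0.14, Rpl5 at 0.09, Rpl36a at 0.11, Rps27rt at 0.05 and Rpl22l1 at 0.09, all with a limma adjusted p of at least 0.82.

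**Figure D4:**
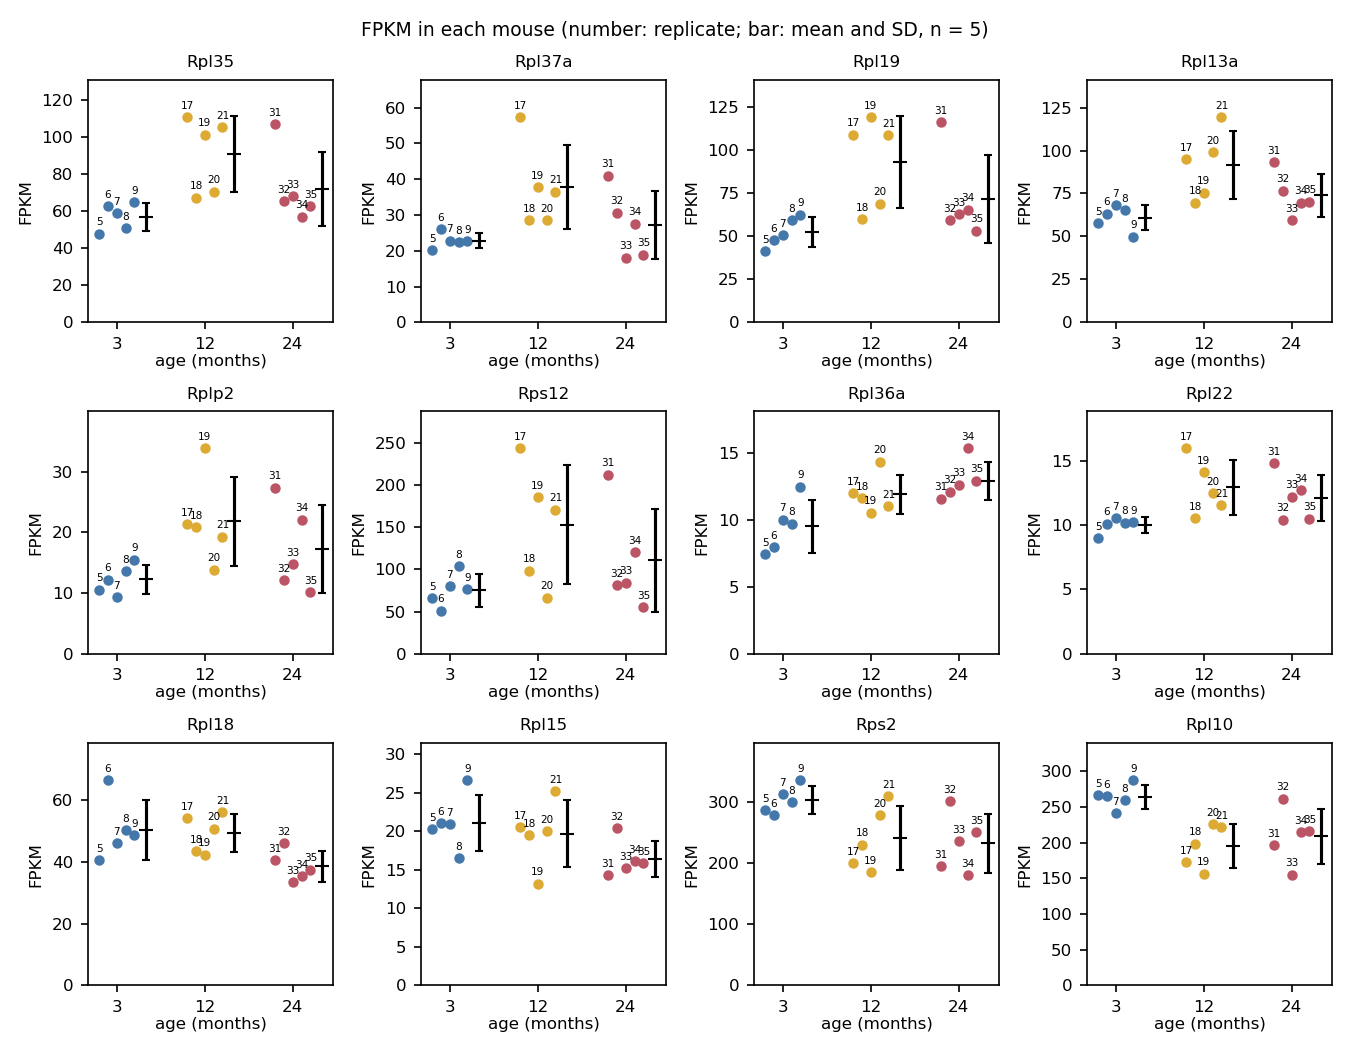
FPKM of 12 ribosomal protein genes in each mouse by age, with replicate numbers, the mean and the SD of 5 mice. Rpl35, Rpl19 and Rps12 are high in 12-month replicates 17, 19 and 21 and in 24-month replicate 31, while Rps2 and Rpl10 are high in the young mice.

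Core members varied together in part between mice of 1 age. Over the 2926 pairs of core genes the median Pearson r across the 15 mice on the log2 scale was 0.34, and 0.31 after each age was centred on its mean. Over the 78 mitochondrial ribosomal protein genes above 0 in all mice it was 0.06 and 0.04. These pairs share libraries and depth, and the values are descriptions. The mitochondrial genes had lower levels, as given above, and other genes of like level were not compared. Rps12, chosen because its range was wide, was 65.6, 51.1, 79.9, 104 and 77.0 FPKM at 3 months, 243, 98.6, 185, 66.6 and 171 FPKM at 12 months and 212, 81.0, 84.4, 120 and 55.6 FPKM at 24 months. Replicates 17, 19, 21 and 31 stood highest. The genes most like it over the 15 mice were Rpl23 (r = 0.95), Rps19 (0.91), Rpl19 (0.90), Rpl4 (0.87) and Rpl24 (0.85), and the least like it were Rps2 (-0.59), Rpl10 (-0.58) and Rpsa (-0.49). Of the members annotated as pseudogenes, Rps3a2 and Rpl6l had an r of 0.83 and 0.80 with it. The r was 0.57 for Rps4l, -0.12 for Rpl37rt and -0.40 for Rps12l1.

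The reads of related sequences moved with this pattern in part. The 186 ribosomal protein pseudogenes, none of them a member, summed to 97.4 to 116 FPKM in 9 mice and to 182 to 244.8 FPKM in the other 6, which were 3-month replicate 8, 12-month replicates 17, 18 and 19 and 24-month replicates 31 and 34. Rpl6l was 0.505, 0.683, 0.575, 1.56 and 0.590 FPKM at 3 months, 4.40, 2.42, 3.65, 0.397 and 0.587 FPKM at 12 months and 4.39, 0.743, 0.625, 3.18 and 0.531 FPKM at 24 months. Its 6 highest mice were those same 6. Between 24 and 3 months 2 of 178 tested pseudogenes passed, beside 1.22% of all genes. Between 12 and 3 months 0 of 167 passed, beside 0.25% of all genes. The part of these reads in the levels of the core genes was not tested. Between 5.03 and 8.03 Gb were aligned per library. The median was 6.04 Gb for the young mice, 7.17 Gb for those of 12 months and 6.999 Gb for the old, and the part of depth in the differences between ages was not tested.

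Most of the members' signal came from coding transcripts. Of the 518 transcripts, 214 are annotated as protein coding, 158 as retained introns, 55 as processed transcripts without a coding frame and 23 as targets of nonsense-mediated decay, and 64 were assembled by the authors and have no annotated type. Coding transcripts held 79.2% to 84.9% of the members' FPKM in a mouse, retained introns 3.87% to 7.07% and assembled transcripts 6.51% to 10.7%. The share of retained introns was 4.89 ± 0.844% at 3 months, 4.44 ± 0.634% at 12 months and 5.45 ± 1.07% at 24 months (SD, n = 5), and the share of decay targets was 2.15 ± 0.353%, 2.63 ± 1.36% and 2.79 ± 1.06%.

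Fitted as single transcripts, which was added after the genes were seen, the members again gave no call. Between 24 and 3 months limma put 0 of 516 member transcripts below an adjusted p of 0.05 (0.0192% of 124719), with 24 higher and 11 lower at an unadjusted p under 0.05, beside 5.43% and 2.47% of all transcripts. Transcripts of 1 gene share reads, and their estimates are not independent. A pair of opposite differences was chosen after these values were seen and belongs to Rps19.

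The Rps19 coding transcript ENSMUST00000108429 (chr7:24884714-24889806) was 3.06, 18.6, 17.6, 26.1 and 8.73 FPKM at 3 months, 2.17, 2.28, 2.31, 12.6 and 12.2 FPKM at 12 months and 3.63, 1.91, 0.992, 1.68 and 0.951 FPKM at 24 months. Young replicate 5 lay among the old mice and the other young mice above them. The log2 difference between 24 and 3 months was -2.29 (SE 0.49, limma adjusted p = 0.241). The retained-intron transcript ENSMUST00000138662 (chr7:24884635-24887759) was 0.874, 0.695, 0.799, 0.953 and 0.776 FPKM at 3 months, 1.31, 0.597, 1.68, 1.10 and 2.29 FPKM at 12 months and 1.82, 1.36, 2.18, 1.94 and 1.98 FPKM at 24 months. Every old mouse exceeded every young mouse, and the log2 difference was 0.64 (SE 0.12, limma adjusted p = 0.173). The gene as a whole averaged 40.7 ± 5.92 FPKM at 3 months and 48.5 ± 9.69 FPKM at 24 months (SD, n = 5).

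Introns of ribosomal protein genes are known to house small nucleolar RNAs (snoRNAs), which guide the modification of rRNA. By the annotation 58 snoRNA genes lie on the same strand inside 30 of the members, with 5 in Rpl4 and 4 in Rpl13a. Only 19 of them were listed by name in the table, and the highest mean among these was 3.12 FPKM, so these libraries give little on the snoRNAs themselves.

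Of 11929 circular RNAs listed in the kidney, 9 came from 8 of the members. Circular RNAs are closed loops made by back-splicing of exons or left over from introns that escape debranching. Of the 9, 8 were intronic, from Rps7, Rpl7a, Rpl9, Rpl5 (with 2), Rpl3, Rps24 and Rpl10a, whereas 9.38% of all listed circular RNAs were intronic. The exonic circular RNA of Rpsa (circRNA9757, chr9:120129158-120130363, with 2 exons) had 6191 ± 713, 7696 ± 565 and 7168 ± 549 estimated counts (SD, n = 5) at 3, 12 and 24 months and ranked 103 by mean count among all circular RNAs. The annotated snoRNA Gm26448 lies within its span. Between 24 and 3 months the log2 difference of this circular RNA was 0.05 with edgeR (adjusted p = 0.809). The library size used there was the total of the circular counts multiplied by a normalization factor (TMM). The estimated counts of circular RNAs printed here and below are not scaled by it.

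With edgeR's quasi-likelihood test 1 of the 9 passed an adjusted p of 0.05, against 13.3% of 11924 circular RNAs tested. It was ciRNA712 from an intron of Rpl5 (chr5:107904895-107907187, spanning the snoRNA Gm22270). Its estimated counts were 105, 96.1, 85.2, 93.5 and 93.0 at 3 months, 130, 131, 136, 105 and 156 at 12 months and 166, 96.5, 133, 164 and 137 at 24 months. In these counts, which are not scaled for library size, 4 of the old mice lay above every young mouse and replicate 32 lay among them. With library size taken into account, the log2 rise was 0.38 (SE 0.11, edgeR adjusted p = 0.0416), and DESeq2 gave an adjusted p of 0.039. The call was lost when any of 3-month replicates 6, 7, 8 and 9 or 24-month replicates 31, 33, 34 and 35 was left out, with adjusted p-values between 0.0574 and 0.104, while the log2 difference stayed between 0.34 and 0.46 whichever mouse was left out. The other intronic circular RNA of Rpl5, ciRNA475 (chr5:107903869-107904714, spanning Snord21), had 106 ± 29.0 estimated counts at 3 months and 94.6 ± 17.7 at 24 months, a log2 difference of -0.33 (edgeR adjusted p = 0.225). ciRNA1046 of Rps7 had 26.6 ± 5.05 and 46.1 ± 16.2 estimated counts, a log2 difference of 0.63 (edgeR adjusted p = 0.094). Linear Rpl5 mRNA averaged 94.5 and 98.9 FPKM at the same ages, as given above.

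**Figure D5:**
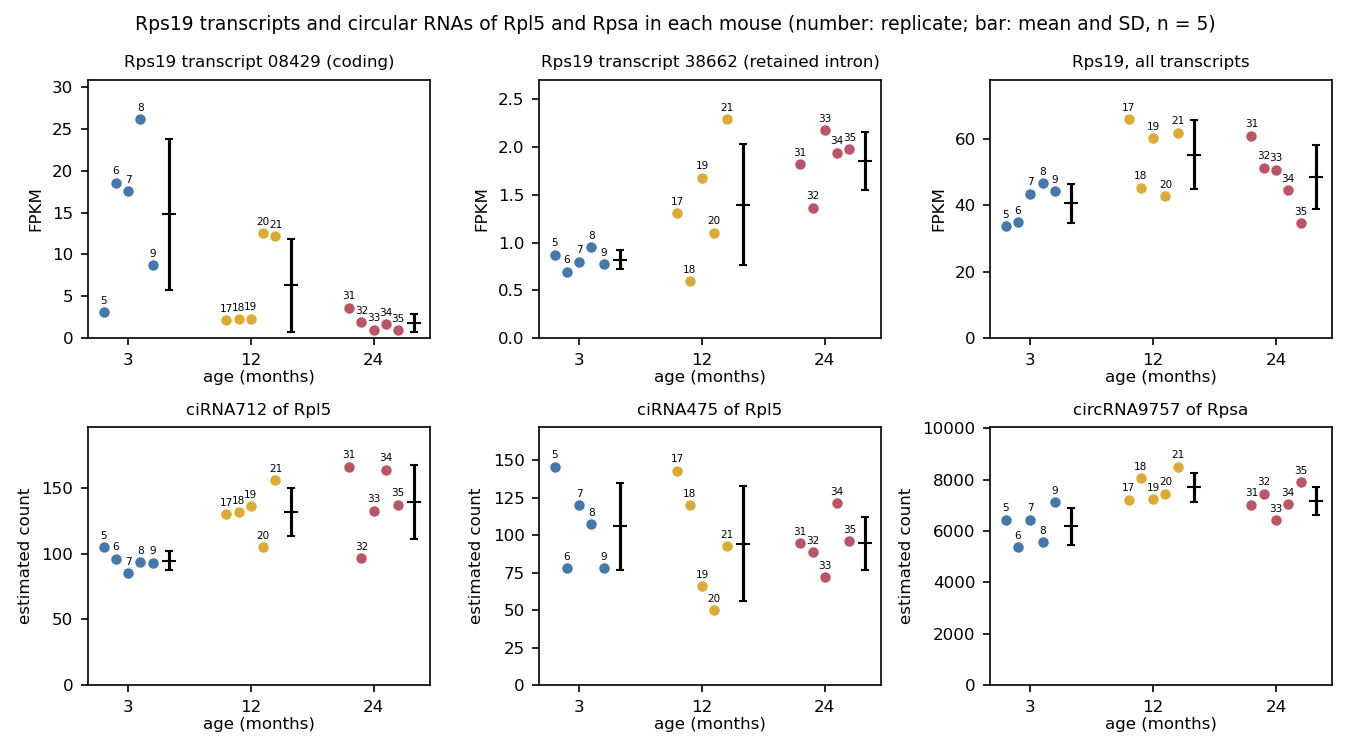
FPKM of a coding and a retained-intron transcript of Rps19 and of the gene (top) and estimated counts of the intronic circular RNAs of Rpl5 and the exonic circular RNA of Rpsa (bottom) in each mouse by age, with replicate numbers, the mean and the SD of 5 mice. The Rps19 transcripts differ in opposite directions between 3 and 24 months. In counts not scaled for library size, ciRNA712 lies between 85.2 and 105 in the young mice and between 96.5 and 166 in the old.

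Of the 82 mitochondrial ribosomal protein genes 0 passed in any comparison. Between 24 and 3 months 5 were higher and 3 lower at an unadjusted p under 0.05, beside 11.4% and 3.47% of all genes. The smallest p-values belonged to Mrps5, at a log2 difference of 0.48, Mrps9, at 0.36, Mrpl4, at -0.40, and Mrps6, at -0.56. Other genes of the pathway gave no call in the linear RNA either. Of the proteins of the ribosome that the symbol rule leaves out, the ubiquitin-like fusion Fau averaged 39.1 ± 6.56 and 40.4 ± 4.92 FPKM, and Rack1, a scaffold on the small subunit, 95.3 ± 12.2 and 82.1 ± 11.4 FPKM. Of 38 translation factors, 0 passed in any comparison. Between 24 and 3 months 1 was higher and 3 lower at an unadjusted p under 0.05, beside 11.4% and 3.47% of all genes. The 3 lower were Eif3i, at a log2 difference of -0.24, Eif1, at -0.27, and Eif3h, at -0.17, and the higher was Eef1b2, at 0.28. Eif3e had 0.23. Of 74 tested ribosome biogenesis genes 0 passed, with 6 higher and 3 lower, beside the same 11.4% and 3.47% of all genes. Wdr36, an assembly factor of the small subunit, had a log2 difference of 0.30 (limma adjusted p = 0.0875) and Nol10 0.37 (limma adjusted p = 0.1005). Nob1, which makes the last cut of the small-subunit rRNA, had -0.40, and Bop1, a large-subunit assembly factor, -0.35.

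The 8 listed regulators act on the translation of TOP mRNAs or, for Myc, on ribosomal genes. At the unadjusted limit 1 was higher and 1 lower between 24 and 3 months. Over all genes 11.4% were higher and 3.47% lower. The S6 kinase gene Rps6kb1 averaged 12.4 ± 1.89 FPKM at 3 months and 16.4 ± 2.44 FPKM at 24 months, a log2 difference of 0.37 (SE 0.12, limma adjusted p = 0.188). Larp1, which binds the TOP motif and represses these mRNAs, averaged 15.4 ± 1.40 and 12.6 ± 1.20 FPKM, a log2 difference of -0.27 (SE 0.08, limma adjusted p = 0.166). For the kinase Mtor the difference was 0.07 and for its partner Rptor 0.01. Rps6kb2 had 0.01, and the repressors of cap-dependent translation Eif4ebp1 and Eif4ebp2 had -0.26 and 0.64 (limma adjusted p = 0.389 and 0.358). Myc, an activator of ribosomal genes, had -0.23 (limma adjusted p = 0.662). Between 24 and 3 months the 30 members with a pyrimidine run had a median log2 difference of 0.07 and the 35 without 0.01, and between 12 and 3 months 0.17 and 0.20.

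The host genes of other snoRNAs also carry TOP motifs, and 0 of the 9 listed passed. Snhg3 had a log2 difference between 24 and 3 months of 0.42 and Snhg6 of 0.43, both at an unadjusted p under 0.05 (limma adjusted p = 0.213 and 0.207). Over all genes 11.4% were higher at that limit. The other 7 host genes had larger p-values, with 0.02 for Gas5, -0.14 for Snhg1, 0.27 for Snhg4, 0.14 for Snhg5, 0.30 for Snhg8, -0.25 for Snhg12 and 0.23 for Epb41l4aos.

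The tissue label was checked against markers. The proximal tubule genes Slc34a1 and Lrp2, the loop genes Umod and Slc12a1, and the distal tubule gene Slc12a3 had means above 148 FPKM at every age and the collecting duct gene Aqp2 averaged between 27.0 and 69.6 FPKM. Summed, the 7 kidney markers of the list ranged from 2422 to 2940 FPKM at 3 months, from 2295 to 2841 FPKM at 12 months and from 2318 to 2744 FPKM at 24 months. Of 10 markers of other cells, 0 passed in any comparison, and 5 were higher at an unadjusted p under 0.05 between 24 and 3 months (Ptprc, Cd79a, Jchain, Cd3e and Pecam1, of leukocytes and endothelium). Between 12 and 3 months 4 were higher (Cd79a, Jchain, Cd3e and Col1a1). Over all genes 11.4% were higher in each of these comparisons. None of the 10 markers was at 0 in any mouse. Their sum, mostly the globin genes Hbb-bs and Hba-a1, ranged from 336 to 842 FPKM at 3 months, from 413 to 711 FPKM at 12 months and from 220 to 698 FPKM at 24 months. Jchain, of plasma cells, averaged 1.902, 7.03 and 5.36 FPKM and Col1a1, of fibroblasts, 2.60, 5.80 and 3.66 FPKM, while Adgre1 and Acta2 had log2 differences of 0.16 and 0.27 between 24 and 3 months. The part of such cells in the members' differences was not tested.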

How the data were processed

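Kidney RNA of 15 mice was analysed, grouped by the age label. According to the methods of the study, the authors removed adaptors (Cutadapt), aligned to GRCm38 (Bowtie2, HISAT2) and assembled and quantified transcripts (StringTie). The submitters' processing notes name TopHat2, TopHat and StringTie. The deposited FPKM values are per transcript and mouse, by the authors, and the deposited mean coverage signal gave the aligned bases of each library. The deposited estimated counts of circular RNAs and their circular FPKM values have no stated method. The counts were rounded, and the circular FPKM values were not used. No column of another sample was found.

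Transcripts with class codes for an annotated match, a contained match, a new isoform or an exonic overlap were summed per gene. Genes above 0 in at least 1 of the 10 compared mice were tested with limma 3.58.1 (eBayes with trend) on log2(FPKM + 1) in R 4.3.3, with Benjamini-Hochberg adjustment over all genes. Fold changes on this scale understate those of low genes. Circular RNAs above 0 in at least 5 of 10 mice were tested with edgeR 4.0.16 (quasi-likelihood, TMM), with DESeq2 1.42.0 as the alternative. The limma and edgeR steps, but not DESeq2, were tested on simulated data. The changes set there were larger than the difference of any member gene here. Reads per gene are unknown from FPKM, so no counting interval is given, and precision rests on the 5 mice of an age. Whether mice shared a litter or cage is not given in the sources used here.

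Named genes were in each comparison the 5 higher and 5 lower members of smallest p, the 4 highest members and 4 lowest core members, paralogs with their partners, 14 members with known roles, and, from other lists, all genes of lists of up to 10 and the 2 higher and 2 lower genes of smallest p of longer ones. Other genes named (Rps12, Rpl23, Rpl4, Rpl24, Eif3h and the transcripts of Rps19) were chosen after their values were seen. Some genes that the rule names are not reported here. Members and lists were chosen with earlier results of these data known. Annotation came from GENCODE M21 and promoter sequence from RefSeq, both on the build of the files. Alternatives were another pseudocount, a filter at a mean of 1 FPKM, TPM, median-of-ratios scaling, all ages in 1 fit, other class codes, a robust variance prior, an ordinary linear model with a library covariate as in ballgown, and leaving out each mouse.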

Additional observations from a re-analysis of the deposited data

Results flagged for a closer look

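Among 40 members and their sum, examined in each age, there were 123 groups of 5 mice. In 8 groups the gap of 1 mouse to its nearest neighbour took an unusually large share of the group's range. Chance gives about 1 in 20 groups for independent, normally distributed values. These groups share mice and FPKM need not be so distributed, so that rate cannot be set against the 8. Rpl19 was 116 FPKM in 24-month replicate 31, with the other 4 mice between 53.1 and 65.4 FPKM, and Rpl35 was 107 FPKM in the same mouse, with the others between 57.1 and 68.0 FPKM. In 12-month replicate 17, which had the highest sum of all members, Rps27a was 42.6 FPKM against 22.0 to 24.2 FPKM and Rpl6 was 79.8 FPKM against 54.0 to 60.2 FPKM. Rpl22 was 8.96 FPKM in 3-month replicate 5, which had the lowest sum, against 10.1 to 10.5 FPKM. Rpl6l was 1.56 FPKM in 3-month replicate 8 against 0.505 to 0.683 FPKM. Rps27rt, close to 0 throughout, was 0.0563 FPKM in 12-month replicate 21 with the other 4 listed at 0, and 0.200 FPKM in 24-month replicate 32 against 0 to 0.0577 FPKM. The causes were not tested.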

How the results depend on the processing

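No paired analysis was possible because the ages share no replicate number. The count of members past the adjusted p stayed at 0 in all 3 comparisons under every alternative, and the smallest adjusted p of a named member change was 0.0887. For 30 changes of named members, some of the same gene in 2 comparisons, 577 alternatives were computed. Of these 575 kept the direction and 2 turned. Rpl5 between 24 and 12 months turned to -0.21 with annotated transcripts only. Rpl22l1 in the same comparison turned to -0.00661 without 12-month replicate 18, within a range of -0.00661 to 0.167 when each mouse was left out. Counts at an unadjusted p under 0.05 moved more. Median-of-ratios scaling gave 1 higher and 10 lower members between 24 and 3 months (6.47% of all genes lower) and 8 higher between 12 and 3 months. TPM gave 4 higher between 24 and 3 months (12.1% of all genes), the library covariate, fitted without a moderated variance, 4 higher between 12 and 3 months, every class code 1 higher between 24 and 12 months (3.14% of all genes), and leaving out replicates 17 and 21 together, chosen after seeing the data, 7 higher between 12 and 3 months. Leaving out 1 mouse at a time gave 1 to 6 higher and 1 to 7 lower members between 24 and 3 months, 13 to 27 higher and 1 to 4 lower between 12 and 3 months, and 0 higher and 5 to 20 lower between 24 and 12 months. The median log2 difference of members then ran from -0.02 to 0.07, from 0.14 to 0.26 and from -0.20 to -0.12 in these comparisons. The count of circular RNAs ran from 0 to 1. The causes were not tested. Depth per gene is unknown, and differences smaller than the spread between 5 mice were not detectable.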
